A study of Mus musculus with 4 samples.

Results

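The listed Ly6 genes are the 6 genes of the deposited comparison table whose symbols begin with Ly6 followed by a letter, namely Ly6c2, Ly6c1, Ly6a2, Ly6g, Ly6e and Ly6g5b, out of 5807 genes in that table. Eosinophils were sorted from C57BL/6 wild-type mice aged 6 to 8 weeks that had received 150000 Lewis lung carcinoma (LLC) cells into the pleural cavity 2 days earlier. One group was bone marrow eosinophils and the other was pleural cavity eosinophils, with 2 libraries in each tissue. The labels and the study's methods place both tissues in LLC-bearing mice, and they are followed here. The text of the study's results calls the bone marrow cells naïve instead, and this difference could not be resolved. Every value is the authors' mean over the 2 libraries of a tissue, and single libraries were not given, so replicate spread could not be computed and nothing could be tested.

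Ly6 proteins are small, cysteine-rich proteins with a three-fingered fold called the LU domain, and most of them are held on the outer cell surface by a glycosylphosphatidylinositol (GPI) anchor. Several are standard markers of mouse leukocytes: Ly6C of inflammatory monocytes, Ly6G of neutrophils, and the product of Ly6a (Sca-1) of blood stem cells. The antibody known as Gr1 recognizes Ly6G and, less strongly, Ly6C. This bears on the cells compared here. Pleural cavity eosinophils were gated as DAPI-, CD11c-, Gr1-/low, CD11b+, F4/80+, SiglecF+ and SSChi after enrichment for CD45, whereas bone marrow eosinophils were gated as DAPI-, CD45+, SiglecF+ and SSChi after enrichment for F4/80, with no Gr1 step. The tissue and the gate therefore cannot be told apart for any gene here. The Gr1 step bears most directly on Ly6g, Ly6c1 and Ly6c2, which encode its antigens.

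In the RefSeq annotation of GRCm38.p6, 22 genes match the same symbol rule, of which 21 are protein-coding and 1 is a pseudogene. Chromosome 15 holds 15 of them within 807 kb, between positions 74762056 and 75569470, and 5 of these were listed. Of these, 4 follow one another along the chromosome, with no other listed gene between them. Ly6c1 lies at chr15:75044018-75048920, Ly6c2 at chr15:75108161-75112066, Ly6a2 at chr15:75131292-75135128 and Ly6g at chr15:75155261-75159128. Ly6e lies apart from them at chr15:74955025-74959904. Chromosome 17 holds 6 family members within 51.2 kb of the class III region of the major histocompatibility complex, and Ly6g5b was the 1 listed, at chr17:35113944-35118558. The other 16 genes, which include Ly6a, Ly6i, Ly6d and Ly6k, were not in the table, and no direction can be given for them. The table lists genes by the authors' own comparison of the same tissues, so a listed gene had already been chosen for a difference.

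The bases upstream of the start are shown for the 4 neighboring genes, because these are the members with the largest differences and their promoters are related in sequence. Each window is the 250 bases before the most upstream start in the RefSeq promoter set on GRCm38.p6, read 5′ to 3′ on the gene's strand. The annotated spans of Ly6c2 and Ly6c1 reach 95 and 83 bases into their windows, so the part upstream of the span is printed, 155 bases for Ly6c2 and 167 for Ly6c1. Capitals mark the letters AGGAAGT, which contain the GGAA core that ETS family factors such as PU.1 can bind. Ly6c2, Ly6a2 and Ly6c1 are on the minus strand, and Ly6g is on the plus strand. The printed stretches are chr15:75112067-75112221 for Ly6c2, chr15:75135129-75135378 for Ly6a2, chr15:75155011-75155260 for Ly6g and chr15:75048921-75049087 for Ly6c1.
Ly6c2: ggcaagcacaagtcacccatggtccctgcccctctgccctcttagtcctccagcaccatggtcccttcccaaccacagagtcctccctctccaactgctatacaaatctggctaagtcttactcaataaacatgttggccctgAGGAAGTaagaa
Ly6a2: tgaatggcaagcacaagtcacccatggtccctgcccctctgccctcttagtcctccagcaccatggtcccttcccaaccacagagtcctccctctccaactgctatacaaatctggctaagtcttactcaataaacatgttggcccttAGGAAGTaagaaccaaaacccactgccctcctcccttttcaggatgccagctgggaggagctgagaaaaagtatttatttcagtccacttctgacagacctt
Ly6g: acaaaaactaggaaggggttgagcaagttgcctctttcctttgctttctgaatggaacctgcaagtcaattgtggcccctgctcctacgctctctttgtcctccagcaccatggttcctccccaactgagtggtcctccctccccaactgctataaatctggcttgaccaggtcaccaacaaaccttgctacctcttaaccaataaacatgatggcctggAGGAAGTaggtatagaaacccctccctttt
Ly6c1: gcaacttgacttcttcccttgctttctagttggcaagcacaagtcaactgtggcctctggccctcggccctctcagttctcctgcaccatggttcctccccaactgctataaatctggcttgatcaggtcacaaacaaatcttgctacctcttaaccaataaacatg
Over the whole windows, Ly6c2 and Ly6a2 were nearly one sequence, with 242 of 245 aligned bases identical (98.8%). Ly6c2 matched Ly6g at 81.3% of aligned bases and Ly6c1 at 81%, and Ly6g matched Ly6c1 at 85.8%. The AGGAAGT letters began 12 bases before the annotated gene span in Ly6c2, 102 before it in Ly6a2 and 30 before it in Ly6g. Distances from the span start at unlike points of the windows. The Ly6c2 and Ly6c1 spans reach 95 and 83 bases into theirs, and those of Ly6a2 and Ly6g do not. AGGAAGT was not in the Ly6c1 window, nor in that of Ly6g5b, on either strand. Of 32851 RefSeq promoter windows of this length, 7.69% held AGGAAGT on either strand. The letters TATAAA were in the Ly6c1 and Ly6g windows, 60 and 99 bases before the span, and not in those of Ly6c2 and Ly6a2, against 12.4% of all windows. The GATA letters AGATAA (9.99% of all windows), the STAT letters TTCNNNGAA (7.02%) and the interferon-response letters GAAANNGAA (7.13%) were in none of the 5 members' windows. The C/EBP letters TTGCNNAA (9.56%) were in that of Ly6g alone, 232 bases before the span on the opposite strand. AGGAAGT was chosen after these sequences were seen, and such matches are letters in a window, not shown binding sites. Ly6e had no entry in the promoter set.

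Ly6c2, which encodes the main Ly6C antigen of monocytes, had the most reads of the 4 neighbors. Its mean was 608.455 reads in pleural cavity eosinophils and 22102.045 reads in bone marrow eosinophils. To set the tissues on 1 scale, reads were divided by the sum over all listed genes, which was 15947437.8 mean reads in the pleural cavity and 11762542.6 in bone marrow and is not a library depth. On this scale Ly6c2 had 38.2 reads per 1000000 reads of listed genes (RPM) in the pleural cavity and 1879 in bone marrow, which is 49.2-fold lower in the pleural cavity. The 95% exact interval for the counting error of the summed reads was 46.5-fold to 52.2-fold. This interval and those below leave out the variation between mice and libraries. The log2 ratio of pleural cavity over bone marrow, with 1 mean read added to each tissue, was -5.62, which ranked 315 from the lowest among the 5807 listed genes. In bulk samples, fewer cells that carry a transcript and less of it per cell cannot be told apart.

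Ly6c1, the neighboring gene for a closely related Ly6C protein, was scarce in both tissues. It had a mean of 16.045 reads in the pleural cavity and 129.075 reads in bone marrow, a 10.9-fold lower level in RPM with a counting interval of 7.55-fold to 16.3-fold. Ly6c1 made up 2.57% of the reads of the Ly6c1 and Ly6c2 pair in the pleural cavity and 0.581% in bone marrow. Both genes have fractional mean reads, which arise when RSEM divides a read between similar genes, so this split is uncertain. In the GENCODE transcripts, 159 of the 1756 distinct 100-base windows of Ly6c1 (9.05%) also occurred in Ly6c2, and 19 occurred in Ly6a. The longest transcripts of Ly6c1 and Ly6c2 were identical at 92.6% of 797 aligned bases. Summed over the pair, the means were 624.5 reads in the pleural cavity and 22231.12 in bone marrow, a 48.3-fold difference, with nearly all of the reads from Ly6c2.

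Ly6g encodes the Ly6G antigen of neutrophils, the main target of the Gr1 antibody, and had the lowest ratio of the family. Its mean was 5 reads in pleural cavity eosinophils and 1088 reads in bone marrow eosinophils. This is 0.314 against 92.5 RPM, or 295-fold lower in the pleural cavity. With 10 reads in all behind the pleural cavity value, the counting interval ran from 160-fold to 616-fold. The log2 ratio with the added read was -7.94. The pleural cavity level is thus a few reads, and its order against other scarce genes is not resolved at this depth.

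Ly6a2 lies between Ly6c2 and Ly6g and is annotated as protein-coding by RefSeq and as a transcribed pseudogene, I830127L07Rik, by GENCODE. It had a mean of 19.5 reads in the pleural cavity and 2435.5 reads in bone marrow, which is 169-fold lower in RPM with a counting interval of 124-fold to 238-fold. Its log2 ratio was -7.33. The counting intervals of Ly6a2 and Ly6g overlap, and both lie beyond that of Ly6c2. Although the Ly6a2 and Ly6c2 promoters are almost the same letters, none of the 804 distinct 100-base windows of the Ly6a2 transcripts occurred in a transcript of any other gene. The longest Ly6a2 and Ly6c2 transcripts were identical at 84.8% of 664 aligned bases. The mean reads of Ly6a2 and of Ly6g were multiples of 0.5, as undivided reads in 2 libraries would give.

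Ly6e, an interferon-inducible member that is expressed widely and restricts the entry of some viruses, had the most reads of the family in both tissues and differed least. It had a mean of 15759.5 reads in the pleural cavity and 24123.5 reads in bone marrow. It was 2.08-fold lower in the pleural cavity in RPM, with a counting interval of 2.05-fold to 2.11-fold and a log2 ratio of -1.05. This size depends on the scaling. Without scaling the log2 ratio was -0.61, with the median ratio of the listed genes it was -1.40, and with a trimmed mean of the log ratios it was -0.87. Ly6e was lower in the pleural cavity under each of these 4 scalings.

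Ly6g5b, a member from the chromosome 17 group, had a mean of 142.585 reads in the pleural cavity and 268.33 reads in bone marrow. It was 2.55-fold lower in RPM, with a counting interval of 2.21-fold to 2.96-fold and a log2 ratio of -1.35. Its log2 ratio was -0.91 without scaling. Its annotated span overlaps that of Csnk2b, the regulatory subunit of casein kinase 2, which had 1073.87 and 1336.81 mean reads, and both genes have fractional reads. Of the 1162 distinct windows of the Ly6g5b transcripts, as long as those of Ly6c1 above, none occurred in a transcript of any other gene. Whether reads were divided between Ly6g5b and Csnk2b was not tested, and the value of Ly6g5b is uncertain. Its listed neighbor Abhd16a, a lipid hydrolase gene, had a log2 ratio of 0.60.

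**Figure D1:**
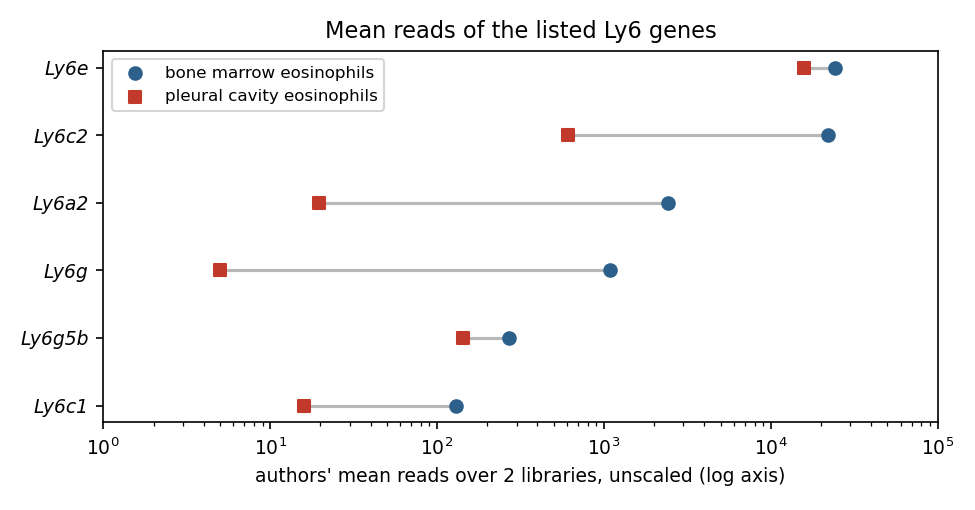
Authors' mean reads of the 6 listed Ly6 genes in bone marrow eosinophils (circles) and pleural cavity eosinophils (squares), on a log axis and not scaled for depth. Each point is a mean of 2 libraries whose separate values were not available here, so no error bars are drawn. Ly6g spans 1088 to 5 mean reads, whereas Ly6e spans 24123.5 to 15759.5.

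**Figure D2:**
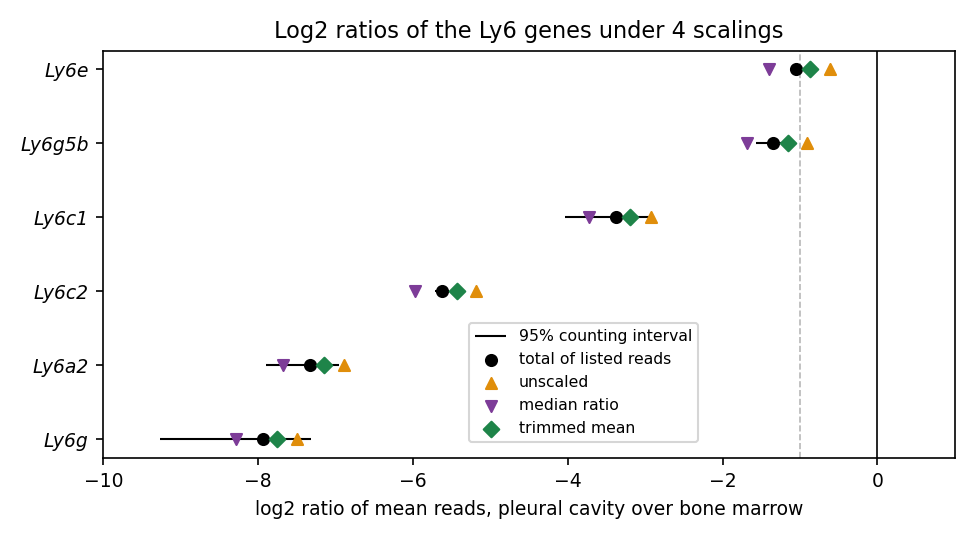
Log2 ratio of mean reads, pleural cavity over bone marrow, for the 6 Ly6 genes under 4 scalings, with 1 mean read added. Lines are 95% exact intervals of the ratio scaled to the total of listed reads, with no read added, and cover counting error only. Ly6e and Ly6g5b lie on both sides of the dashed line at -1 depending on the scaling, and the other 4 genes lie below -2 under each.

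All 6 genes were thus more than 2-fold lower on the main scale (log2 ratio under -1), and none was more than 2-fold higher. Among the 5807 listed genes, 50.5% were lower by that measure and 16% were higher. Without scaling, 4 of the 6 Ly6 genes were more than 2-fold lower, beside 43.2% of all listed genes. The scaling also moved the listed genes as a whole. Of the genes past 2-fold, 76% were lower on the main scale and 58.6% without scaling. The median log2 ratio of all listed genes was -1.02 on the main scale, -0.58 without scaling, -1.37 with the median ratio and -0.83 with the trimmed mean, and a Ly6 value is best read beside these. Beside the main-scale median of -1.02, Ly6e and Ly6g5b lay within 0.5 of it, whereas Ly6c1, Ly6c2, Ly6a2 and Ly6g lay more than 2 below it. The median over the 6 genes was -4.50. Because the table lists genes by this same contrast, these counts describe the family and test nothing.

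**Figure D3:**
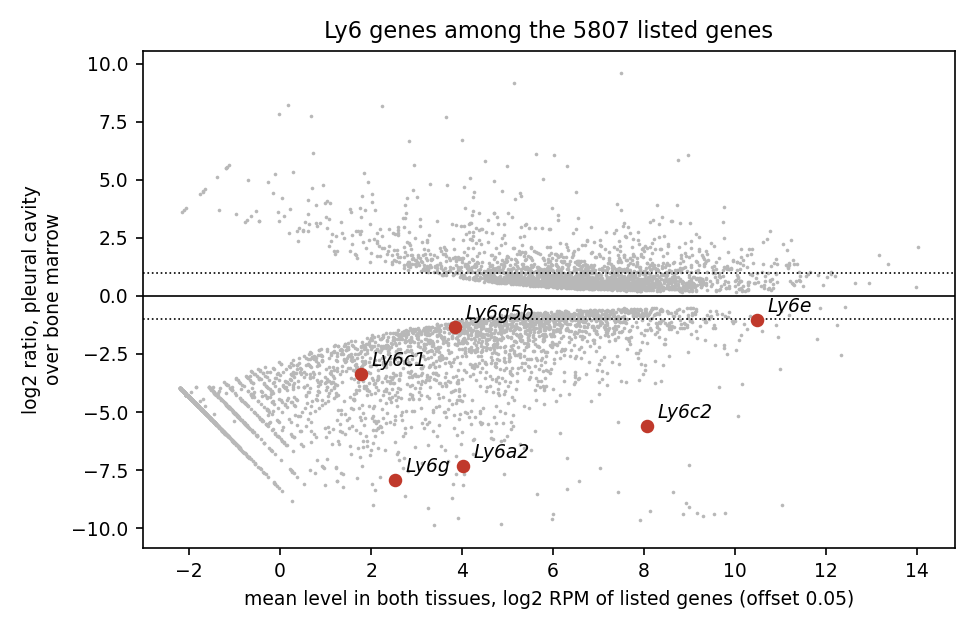
Log2 ratio of pleural cavity over bone marrow (vertical) against the mean level in both tissues (horizontal, log2 RPM) for the 5807 listed genes in gray and the Ly6 genes in red. Dotted lines mark a 2-fold difference. Ly6c2, at -5.62, lies below most gray points of a like level, and Ly6e, at -1.05, lies among them. The gap around 0 reflects the table, which holds genes chosen for a difference.

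The makeup of the family differed between the tissues. The listed Ly6 genes together had 16551.085 mean reads in the pleural cavity, or 0.104% of the listed reads, and 50146.45 in bone marrow, or 0.426%. Ly6e held 95.2% of the Ly6 reads in the pleural cavity and 48.1% in bone marrow. Ly6c2 held 3.68% and 44.1%, and Ly6a2 held 0.118% and 4.86%. Without Ly6e, the family sum was 44.6-fold lower in the pleural cavity. Levels of different genes were compared per kilobase of all annotated exons of a gene, 2740 bp for Ly6c2 and 3784 bp for Ly6e. Which transcripts were expressed is not known, so this comparison is approximate. Per kilobase, the order in bone marrow was Ly6c2 (8066.4 mean reads per kilobase), Ly6e (6375.1), Ly6a2 (3052), Ly6g (1155), Ly6g5b (228) and Ly6c1 (77). In the pleural cavity it was Ly6e (4164.8), Ly6c2 (222), Ly6g5b (121), Ly6a2 (24.4), Ly6c1 (9.57) and Ly6g (5.31). Ly6c2 thus stood first in the family in bone marrow and second in the pleural cavity. Among the 5708 listed genes with an exon length, Ly6c2 ranked 64 in bone marrow and 2181 in the pleural cavity, Ly6e ranked 93 and 214, and Ly6a2 ranked 202 and 3730. By reads not divided by length, Ly6e stood ahead of Ly6c2 in bone marrow too.

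**Figure D4:**
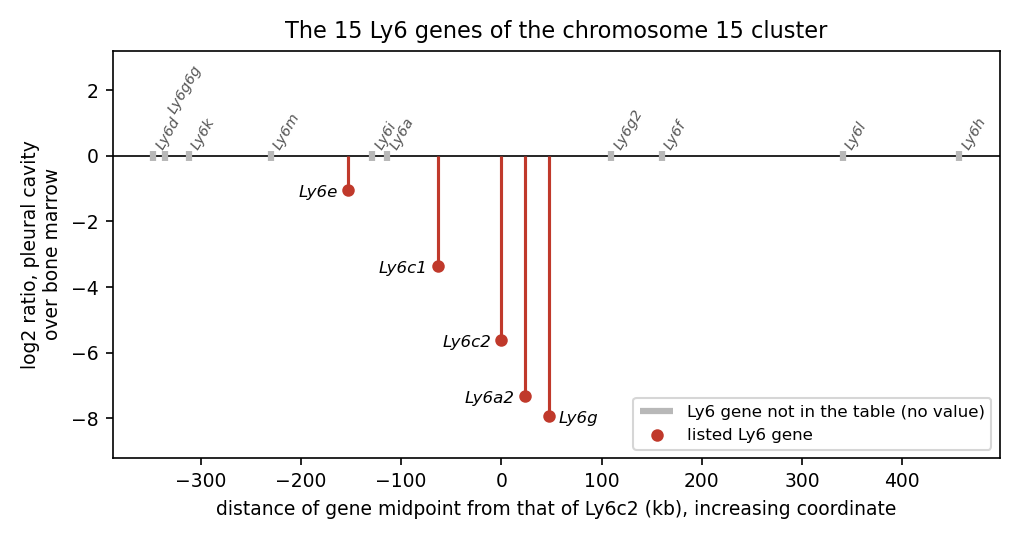
Log2 ratio of pleural cavity over bone marrow for the listed genes among the 15 Ly6 genes on chromosome 15, against the distance in kb of each gene's midpoint from that of Ly6c2. Gray ticks are family members that were not in the table and have no value. The 4 listed genes between -63.6 and 47.1 kb have log2 ratios from -3.37 to -7.94, and Ly6e at -152.6 kb has -1.05.

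The listed genes most like Ly6c2 in both tissues, by the distance of their log2 RPM, were Hp, Alas1, Adpgk, Hdc and Stxbp4. Hp, the plasma hemoglobin scavenger haptoglobin, was the nearest at a distance of 0.92, with 413.5 mean reads in the pleural cavity and 13328.5 in bone marrow. Alas1, an enzyme of heme synthesis, was at 1.35 with a log2 ratio of -3.75. Adpgk, an ADP-dependent glucokinase, followed at 1.43 with -3.69, and Hdc, which makes histamine, at 1.45 with -3.60. Stxbp4 was the fifth, with a log2 ratio of -3.70 and fractional reads. These distances are over 2 tissue means. They are large beside those of the other Ly6 genes to their own nearest genes, such as 0.17 between Ly6e and Gapdh, and no listed gene lay nearer than 0.92 to Ly6c2. The nearest family member to Ly6c2 was Ly6e, at 4.69, and Ly6a2 followed at 5.84.

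Neither the other genes of the same fold nor the genes of the machinery that makes the anchor shared one direction. Of 29 other LU domain genes, 2 were listed. Cd177, a GPI-anchored neutrophil antigen, had 70 mean reads in the pleural cavity and 16479.5 in bone marrow, a log2 ratio of -8.30. Plaur, the receptor of the protease urokinase, had 13356 and 3858, a log2 ratio of 1.35. Of 31 genes that build, attach or remodel GPI anchors, 9 were listed, with 2 more than 2-fold lower and 1 more than 2-fold higher. Over all listed genes, the shares were 50.5% and 16%. The median log2 ratio of the 9 genes was 0.34, beside -1.02 for all listed genes. Among them, Pigs and Gpaa1, subunits of the transamidase that attaches the anchor, had log2 ratios of 0.88 and -0.97. Pigc, of the enzyme that begins anchor synthesis, had 0.65, and Mppe1, which trims the finished anchor, had 0.34.

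Messenger RNAs for the gate antigens went in both directions. Adgre1, which encodes F4/80, was 4.78-fold higher in the pleural cavity in RPM, with 73916.5 mean reads against 11406. Ptprc, which encodes CD45, was 2.55-fold higher. Itgam, which encodes CD11b, was 1.28-fold higher. Ccr3, the eotaxin receptor of eosinophils, is on the same list although neither sort used it, and was 2.90-fold higher. Siglecf, gated on in both tissues and named here after its values were seen, was 2.22-fold higher with 21371 mean reads against 7105.5. Itgax, which encodes CD11c, was not listed. The 3 members that encode Gr1 antigens, Ly6g, Ly6c1 and Ly6c2, were lower as given above. Of 11 eosinophil markers, 9 were listed, with 6 more than 2-fold lower and 3 more than 2-fold higher. Over all listed genes, the shares were 50.5% and 16%. The median log2 ratio of the 9 markers was -7.26. Together they made up 0.811% of the listed reads in the pleural cavity and 9.25% in bone marrow, where the neutrophil markers below made up more. The study's methods give a purity of over 99% for the sorted cells. The 6 lower markers were Prg2, Epx, Ear1, Ear2, Ear6 and Alox15, and the 3 higher ones were Siglecf, Ccr3 and Gata1. Prg2, for the major basic protein, had 1482 mean reads against 555403.5 in bone marrow, and Epx, for eosinophil peroxidase, had 341.5 against 139061.5. The ribonuclease gene Ear1 had a log2 ratio of -8.94, and Alox15, which encodes a lipoxygenase, had -1.85.

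Markers of other leukocytes also differed between the tissues. All 16 neutrophil markers, a list that includes Ly6g itself, were listed. Of them, 15 were more than 2-fold lower in the pleural cavity, beside 50.5% of all listed genes. Together the 16 made up 0.449% of the listed reads there and 11.8% in bone marrow. Most of the pleural cavity share came from Retnlg and from the gelatinase gene Mmp9, which was named after its values were seen and had 34715 mean reads against 14050.5. The other 14 made up 0.019% and 10.5%. The granule gene Ngp had 546.5 mean reads against 263228.5, the calcium-binding protein gene S100a8 had 455 against 229057.5, and the myeloperoxidase gene Mpo had 374 against 196096.5, while Retnlg had 33927 against 147022. Their log2 ratios were -9.35, -9.41, -9.47 and -2.55, beside -7.94 for Ly6g. All 7 basophil and mast cell markers were listed and more than 2-fold lower, beside 50.5% of all listed genes. The 7 had 406 mean reads together in the pleural cavity and 13065 in bone marrow. Of these, the protease genes Prss34, Mcpt8 and Cpa3 had log2 ratios of -9.88, -9.12 and -7.68, and the receptor gene Kit had -3.28.

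Monocyte markers, which bear on Ly6c2, went in both directions. Of 12, 5 were listed, with 3 more than 2-fold lower, beside 50.5% of all listed genes, and 2 more than 2-fold higher, beside 16%. Their sum, carried by Csf1r and Fn1, was 29289.18 mean reads in the pleural cavity and 6078.38 in bone marrow. Csf1r, the receptor for macrophage colony-stimulating factor, had 20627.5 against 3973.5, and Fn1, for fibronectin, had 8314.5 against 766.5. Irf8, a monocyte lineage transcription factor, had 126.5 against 464, and Ms4a6c had 196.185 against 651.875. The third lower marker, Cx3cr1, a chemokine receptor named after its values were seen, had 24.5 against 222.5. Of 10 macrophage markers, 6 were listed, with 1 more than 2-fold lower and 3 more than 2-fold higher. Over all listed genes, the shares were 50.5% and 16%. Beside Adgre1, the 6 markers include Apoe with a log2 ratio of -0.73 and the complement genes C1qb and C1qa with 1.77 and 0.91. Of 13 lymphocyte markers, 4 were listed, Nkg7, Ms4a1, Cd3d and Ncr1, with log2 ratios of -6.97, 1.33, -2.35 and -2.40. The part of other cells and of the Gr1 gate in the Ly6 values was not tested.

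**Figure D5:**
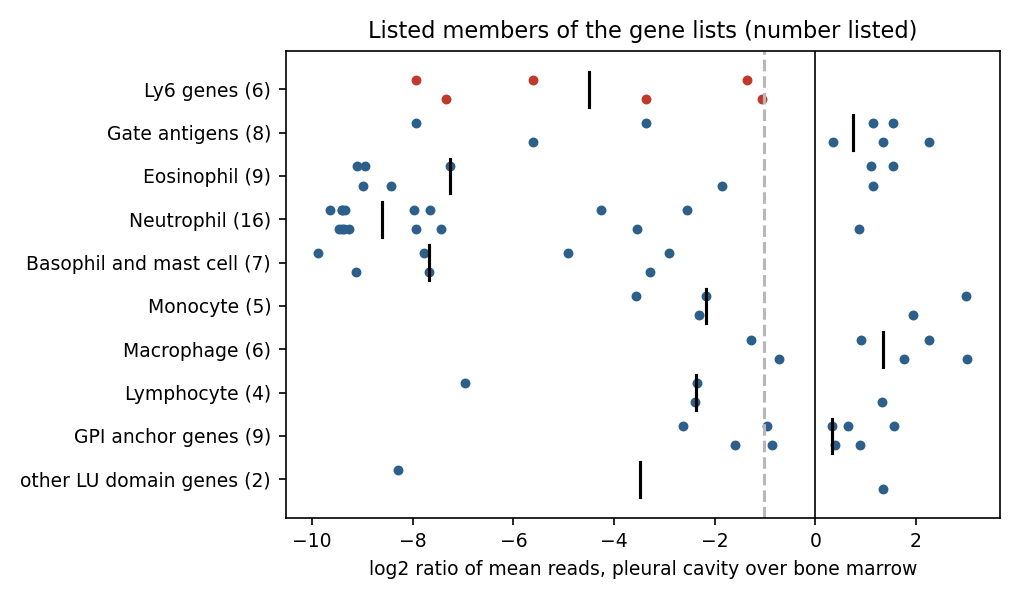
Log2 ratio of pleural cavity over bone marrow for the listed members of each gene list, 1 point per gene, with the number listed in parentheses and a black bar at the median. The Ly6 genes are in red, and the dashed line is the median of all 5807 listed genes, -1.02. Ly6 genes recur under the gate antigens (Ly6g, Ly6c1, Ly6c2) and the neutrophil list (Ly6g). The neutrophil and basophil and mast cell medians lie at -8.61 and -7.68, below the Ly6 median of -4.50, and the macrophage median lies at 1.34.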

How the data were processed

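Eosinophil RNA was sequenced as paired reads of 100 bp from approximately 40000 sorted cells per extraction, with 2 libraries per tissue, grouped by their labels. Per the study's methods, the authors trimmed reads with SOAPnuke, aligned them with HISAT2 2.1.0 to GRCm38 and estimated expected counts per gene with Bowtie2 2.2.5 and RSEM 1.2.8. The deposited table gives the authors' mean expected counts per tissue, not scaled for depth, for genes chosen by their DESeq2 comparison. Its columns of log2 fold changes, p-values and q-values from that comparison were not used. The number of unused per-sample columns was 0, and the depth of each library is unknown.

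Mean reads were divided by the sum over listed genes (RPM). Log2 ratios had 1 mean read added, and genes past an absolute log2 ratio of 1 were counted. Exact (Clopper-Pearson) 95% intervals used the mean reads times 2. They cover counting error only. No test across samples was possible. Members and lists were chosen with earlier results of these data known. Genes were named as all listed Ly6 genes, up to 4 members of each list with the most reads, and the 5 genes nearest to Ly6c2. Alternatives covered scaling, pseudocount, thresholds, read filters and, added once the data had been seen, the sum of Ly6c1 and Ly6c2. Positions and promoters are from RefSeq on GRCm38.p6, of whose promoters 5 of 6 members had one. Exon lengths and transcripts are from GENCODE on the same assembly, in a release earlier than the authors'. One marker list is not reported here. Sequences were aligned globally with free end gaps. Reads were called fractional when over 1e-06 from a multiple of 0.5. Tools were scipy 1.17.1, Biopython 1.88, numpy 2.4.6, pandas 2.3.3, matplotlib 3.10.9 and Python 3.11.15.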

Additional observations from a re-analysis of the deposited data

How the results depend on the processing

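All 6 Ly6 genes remained lower in the pleural cavity under every scaling and pseudocount tried. Of the 32 recomputed log2 ratios, none turned direction, 23 were counted as the same and 9 as moved. The 23 include values just outside the counting interval. Ly6a2 was -6.89 without scaling, beside an interval of -7.90 to -6.95 in log2. Ly6g was -7.21 with a pseudocount of 5, beside -9.27 to -7.32. Ly6c2 moved to -5.18 without scaling, -5.97 with the median ratio and -5.43 with the trimmed mean. Ly6e moved to -0.61, -1.40 and -0.87, and Ly6g5b to -0.91 and -1.69 with the first and second of these. Ly6c1 took the value -5.59 when its reads were summed with those of Ly6c2, an alternative added once the data had been seen. The number of Ly6 genes more than 2-fold lower was 6, and became 4 without scaling or with an absolute log2 ratio over 2, 5 with the trimmed mean, and 3 of 3 without genes with fractional mean reads. With the other LU domain genes it was 7 of 8, and 1 was higher. Over all listed genes, 50.5% were more than 2-fold lower on the main scale, 43.2% without scaling and 47.2% with the trimmed mean. Their lower share was 36.6% with an absolute log2 ratio over 2 and 48.7% without genes with fractional mean reads. The order in bone marrow per kilobase put Ly6c2 before Ly6e, and by mean reads Ly6e took rank 1 and Ly6c2 rank 2. Over all listed genes, the 929 more than 2-fold higher became 1768 without scaling, 584 with the median ratio and 303 with an absolute log2 ratio over 2.

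The list counts are small, and 21 of 144 recomputations were counted as weaker or stronger. The other 123 were counted as the same but include smaller changes. With the median ratio 3 gate antigens were higher, beside 4 on the main scale. Over a log2 ratio of 2, 5 eosinophil markers were lower, beside 6. Without scaling, 4 macrophage markers were higher, beside 3. For the GPI anchor genes, 3, 1 and 2 were higher without scaling, on the main scale and with the trimmed mean, and 4 were lower with the median ratio. With an absolute log2 ratio over 2, or without fractional genes, 1 GPI anchor gene was lower and 0 were higher. For the gate antigens, 1 was higher over a log2 ratio of 2, and 1 was lower without fractional genes. For the eosinophil markers, 1 was higher with the median ratio, 0 were higher over a log2 ratio of 2, and 3 were lower without fractional genes. For the neutrophil markers, 1 was higher without scaling and with the trimmed mean. For the monocyte markers, 1 was higher over a log2 ratio of 2. For the macrophage markers, 0 were lower without scaling and over a log2 ratio of 2, and 2 with the median ratio. For the lymphocyte markers, 0 were higher with the median ratio and over a log2 ratio of 2. No paired analysis was possible because the mean columns carry no replicate numbers, and for the same reason no replicate could be left out. Few reads lie behind the pleural cavity values of Ly6g (10 summed) and Ly6c1 (32 summed), and the Ly6c1 value also depends on how reads are divided with Ly6c2.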
